A study of Mus musculus with 3 samples.

Results

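The interferon regulatory factors are a family of transcription factors, and the 8 members measured here were Irf1, Irf2, Irf3, Irf4, Irf5, Irf7, Irf8 and Irf9. They were found by gene name, as 8 of the 32285 genes listed for mouse splenocytes in 3 single-cell RNA sequencing libraries. The libraries were made with the 5′ chemistry of 10x Genomics, which tags each RNA molecule with a barcode of its own, so that molecules rather than reads are counted (UMIs). Levels are given in CPM: the UMIs of a gene summed over the cells of a class and scaled to a class total of 1000000. The study asked how angiotensin II (Ang II), a peptide that raises blood pressure, and lupus alter splenic immune cells, and what a scavenger of isolevuglandins (lipid oxidation products) does to them.

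The control library pooled splenocytes of sham-treated males and of females of the strain C57BL/6. In the library called Ang II here were male C57BL/6 mice given Ang II by minipump from 10 weeks of age for 2 weeks, at 490 ug/kg/min as the labels print it, with placebo or with the scavenger 2-hydroxybenzylamine (2HOBA). The B6.SLE123 library held mice of that lupus-prone strain, which carries 3 lupus susceptibility loci on a C57BL/6 background. They were given placebo or 2HOBA for 6 weeks from 7 weeks of age, and the study's methods describe them as female. All mice were 12 to 14 weeks old, 3 mice were pooled per condition, and T cells had been depleted with CD3 microbeads in all groups. Each library thus mixed 2 conditions under 6 hashtag antibodies, C0301 to C0306, and the sources used here did not say which hashtag marked which condition. Placebo and 2HOBA were therefore not compared, and hashtag values are given singly or as a range. With 1 library per group, no test between groups was possible. Intervals below are exact 95% intervals that cover counting error only.

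Kept cells numbered 15700 (control), 14017 (Ang II) and 16702 (B6.SLE123), with median UMIs per cell of 1759, 2724 and 1888. Between 415 and 496 cell barcodes were shared by each pair of libraries. Xist, the RNA of the inactive X chromosome, was found in 46.6% to 54.9% of cells of the 6 B6.SLE123 hashtags in 49.2% to 51.7% of cells of control hashtags C0304 to C0306, and in at most 0.386% of cells of control hashtags C0301 to C0303. No Xist UMI was found in kept Ang II cells. Ratios were therefore also taken against only the control hashtags alike in Xist, C0301 to C0303 for Ang II and C0304 to C0306 for B6.SLE123. This alternative was chosen after the data were seen and assigns no hashtag to a condition. Cells were assigned to classes by fixed marker genes, and each class is named with "-like" for that reason. B cell-like cells made up most of each library (13426, 11738 and 13238), and between 96.2% and 97.8% of cells received a class.

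Interferon regulatory factors bind DNA through a shared domain and turn on genes that carry interferon-stimulated response elements. Irf3 and Irf7 are activated downstream of nucleic acid sensors and induce type I interferon genes, and Irf5 acts downstream of Toll-like receptors. Irf9 takes part in the transcriptional answer of cells to type I interferon. Irf1 activates and Irf2 often opposes transcription at the same elements. Irf4 and Irf8 pair with ETS factors and set the fate of B cells and dendritic cells: Irf4 is needed for plasma cells, and Irf8 for plasmacytoid and type 1 conventional dendritic cells.

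On GRCm38, Irf1 lies on chromosome 11 from 53770014 to 53778374, Irf2 on chromosome 8 from 46739732 to 46847458 and Irf8 on chromosome 8 from 120736358 to 120756694, all on the plus strand. Promoter windows from 250 bases before to 50 after each start were taken from RefSeq (GRCm38.p6) and were searched on both strands for 3 sequences. These were the interferon-gamma activated site (GAS, TTCNNNGAA), the interferon-stimulated response element (ISRE, GAAA, then any 2 bases, then GAAA) and a composite site for an ETS factor beside an interferon regulatory factor (GGAA, then any 2 bases, then GAAA). All 8 members matched, with 11 windows, and the windows of 3 members held at least 1 of these sequences. They are shown with their surroundings because sites of these kinds are known to link genes to interferon signals, with the match in capitals:
Irf1, GAS 90 bases before the start (chr11:53769899-53769957, plus strand): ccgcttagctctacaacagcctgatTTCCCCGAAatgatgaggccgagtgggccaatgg
Irf2, ISRE 241 bases before the start (chr8:46739495-46739538, plus strand): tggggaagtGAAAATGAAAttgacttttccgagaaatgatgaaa
Irf8, GAS 171 bases before the start (chr8:120736162-120736220, plus strand): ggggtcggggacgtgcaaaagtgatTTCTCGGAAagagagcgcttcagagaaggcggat
Irf8, GAS 153 bases before the start (chr8:120736180-120736238, plus strand): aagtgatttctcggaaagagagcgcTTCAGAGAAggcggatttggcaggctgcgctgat
The Irf2 stretch also held a composite site that overlapped the ISRE, and a GAS. Of 32851 RefSeq promoter windows of this length, 8.30% held a GAS, 3.44% an ISRE and 2.72% a composite site. The windows of Irf3, Irf4, Irf5, Irf7 and Irf9 held none of these letters. A match describes sequence only.

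Irf8 stood highest in a pair of dendritic cell classes. In plasmacytoid dendritic (pDC)-like cells its level was 2306 CPM (control), 2128 CPM (Ang II) and 1937 CPM (B6.SLE123). It was 1034 to 1083 CPM in type 1 conventional dendritic (cDC1)-like cells, so these classes did not overlap over the 3 libraries. NK cell-like cells (257 to 345 CPM) and B cell-like cells (227 to 287 CPM) came next and overlapped each other. At the other end, Irf8 was 2.89 to 17.2 CPM in neutrophil-like cells, at most 35.0 CPM in type 2 conventional dendritic (cDC2)-like cells, and no UMI was found in basophil-like cells, where a count of 0 allows a level of up to 41.0 to 49.6 CPM per library (3 counts). With every cell thinned to 1000 UMIs, an Irf8 UMI was found in 88.1% to 96.0% of pDC-like cells, 19.97% to 23.54% of B cell-like cells and 0.329% to 1.01% of neutrophil-like cells. Without thinning these shares were 92.3% to 100%, 36.7% to 44.2% and 1.22% to 2.03%. Free RNA was not measured.

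Irf4 was highest in classes of other kinds. Plasma cell-like cells had 169 CPM (129 to 218) under Ang II and 140 CPM (125 to 156) with B6.SLE123, while the control library held only 18 such cells, under the minimum of 20. Among classes with at least 20 cells in every library, migratory dendritic (DC)-like cells led with 49.2 to 205 CPM, followed by B cell-like cells with 40.5 to 59.0 CPM and cDC2-like cells with 21.2 to 48.7 CPM, and these ranges overlapped. In cDC1-like cells, where Irf8 was high, Irf4 was 2.51 to 5.18 CPM. In cDC2-like cells, where Irf8 was at most 35.0 CPM, Irf4 stood above its cDC1-like range. Irf4 was 0.594 to 1.69 CPM in neutrophil-like cells.

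The members tied to sensing were distributed differently. Irf5 was highest in Ly6c2 monocyte-like cells (248 to 329 CPM), overlapped by cDC1-like cells (119 to 270 CPM) and Ace Ear2 monocyte-like cells (173 to 302.2 CPM), the nonclassical monocytes. In NK cell-like cells Irf5 was 7.26 to 19.8 CPM, and in neutrophil-like cells 10.1 to 14.4 CPM. Irf7 was highest in pDC-like cells (175 to 668 CPM), then in Ly6c2 monocyte-like cells (145 to 207 CPM), and lowest in B cell-like cells (13.5 to 18.3 CPM), with neighbours in that order overlapping except below the Ly6c2 monocyte-like cells. Irf3 had its highest median in B cell-like cells (60.5 to 76.0 CPM) and its lowest in neutrophil-like cells (13.7 to 24.6 CPM), and every neighbour in its order overlapped.

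The remaining members were found in every class. Irf1 was 365 to 497 CPM in migratory DC-like cells, above the range of the next class, NK cell-like cells (174 to 239 CPM). Irf2 was 188 to 217 CPM in B cell-like cells and 40.1 to 79.3 CPM in cDC1-like cells, the lowest class. Irf9 was 81.4 to 109 CPM in Ly6c2 monocyte-like cells and 59.1 to 63.5 CPM in B cell-like cells, and the ranges of neighbouring classes overlapped throughout.

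**Figure D1:**
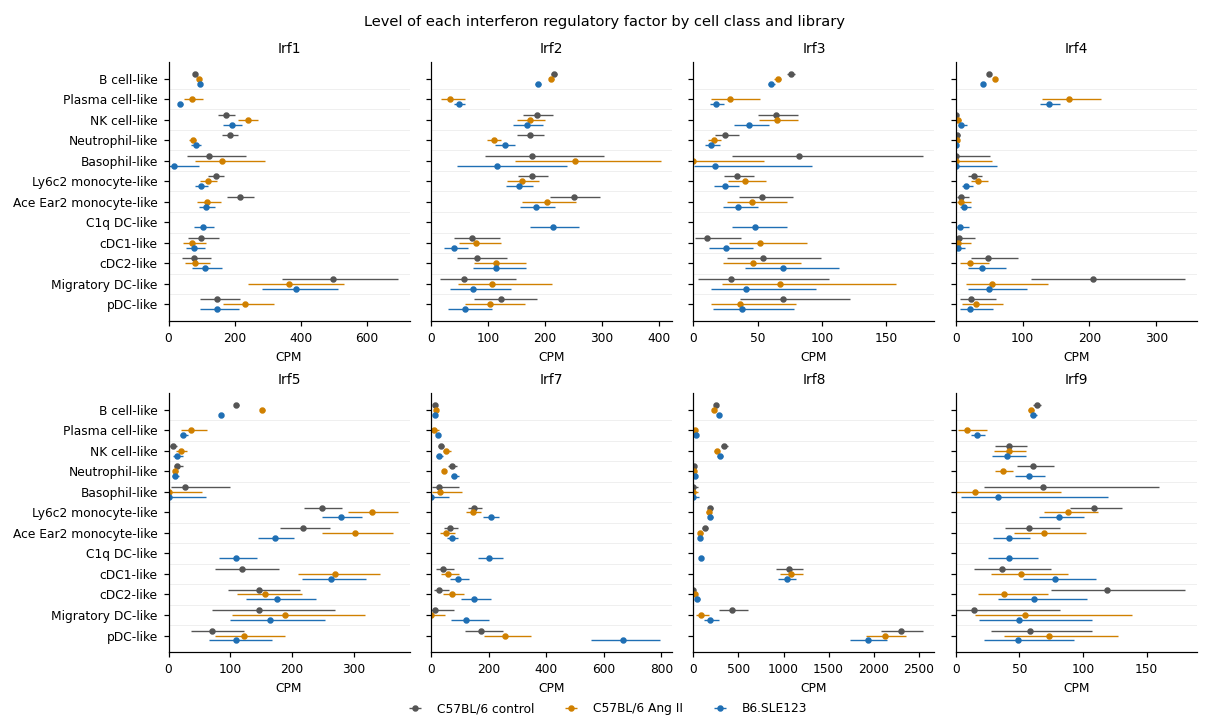
Level (CPM) of each of the 8 members in 12 cell classes, with points for the libraries and bars for exact 95% Poisson intervals. Irf8 stands at 1937 to 2306 CPM in pDC-like cells and 1034 to 1083 CPM in cDC1-like cells, and Irf1 at 365 to 497 CPM in migratory DC-like cells.

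Within the B lineage, Irf4 and Irf8 took opposite orders in germinal centre-like and plasma cell-like cells. Germinal centre-like cells, the dividing B cells that mutate their receptors, had Irf8 at 430 CPM (364 to 504, control), 412 CPM (351 to 480, Ang II) and 408 CPM (386 to 430, B6.SLE123). Plasma cell-like cells had Irf8 at 16.9 CPM (6.21 to 36.8, Ang II) and 23.4 CPM (17.7 to 30.4, B6.SLE123). Irf4 in the same germinal centre-like cells was 8.59 CPM (1.77 to 25.1), 32.9 CPM (17.5 to 56.2) and 12.5 CPM (8.92 to 17.0), against 140 and 169 CPM in plasma cell-like cells. The intervals of the 2 cell types did not overlap for either gene in either library with enough cells. Plasma cell-like cells of the B6.SLE123 library carried Irf4 at 143, 119, 180, 137, 89.3 and 114 CPM under hashtags C0301 to C0306, all above the B cell-like range. The numbers of cells behind these values differed widely between libraries, with 58, 64 and 559 germinal centre-like and 18, 24 and 252 plasma cell-like cells.

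Among resting subsets, Irf8 in follicular-like cells was 259 CPM (control), 230 CPM (Ang II) and 309 CPM (B6.SLE123), and in marginal zone-like cells 208, 181 and 220 CPM in the same order. Irf2 separated the same subsets, with 251, 236 and 232 CPM in follicular-like cells against 140, 148 and 145 CPM in marginal zone-like cells. Marginal zone B cells are the rapid responders at the edge of the follicle. In all 3 libraries the lowest hashtag value of Irf2 in follicular-like cells (202 CPM) lay above the highest in marginal zone-like cells (186 CPM). Irf5 in plasma cell-like cells was 36.7 CPM (19.5 to 62.7, Ang II) and 23.8 CPM (18.0 to 30.9, B6.SLE123). In the B6.SLE123 library, plasma cell-like cells held a median of 9522.5 UMIs and B cell-like cells 1912. Totals included immunoglobulin genes, so levels in CPM are not levels per cell.

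**Figure D2:**
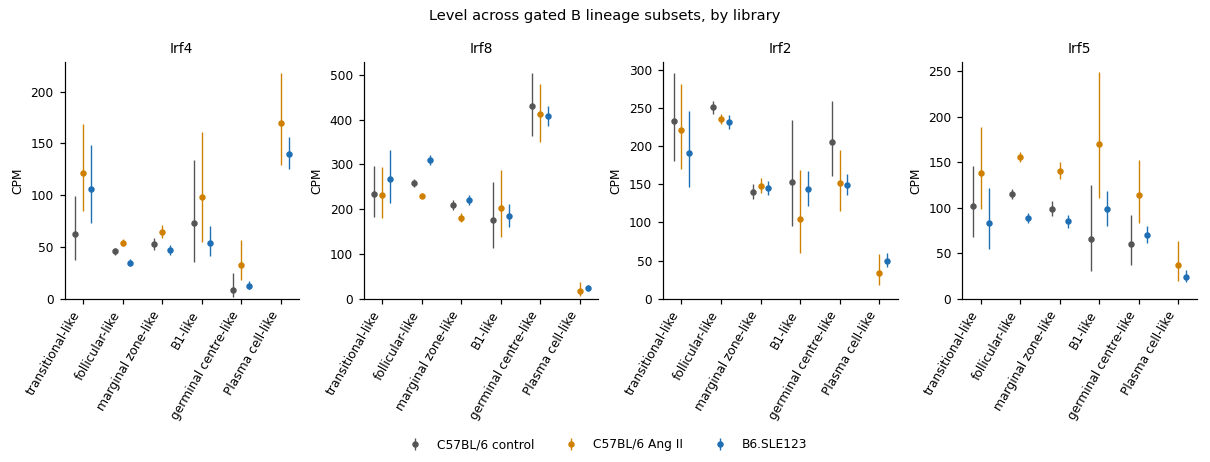
Level (CPM) of Irf4, Irf8, Irf2 and Irf5 in 6 gated B lineage subsets, with a point per library and exact 95% Poisson intervals. Irf8 is at 408 to 430 CPM in germinal centre-like cells and at 16.9 and 23.4 CPM in plasma cell-like cells, where Irf4 is at 169 and 140 CPM.

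Comparing B6.SLE123 with the control in B cell-like cells, 0 of 8 members were past 1.5-fold in either direction. Among all 11485 genes with at least 50 UMIs over both libraries, 10.1% were past that fold higher and 6.91% lower. The members had a median log2 ratio of -0.15, beside -0.05 over all genes. The differences that counting error did not cover were small. Irf8 was 287 against 254 CPM (log2 ratio 0.18, 0.13 to 0.22) and Irf1 94.2 against 81.2 CPM (0.21, 0.14 to 0.29). Irf5 was 85.6 against 110 CPM (-0.36, -0.43 to -0.28), Irf4 40.5 against 49.8 CPM (-0.30, -0.41 to -0.19) and Irf2 188 against 217 CPM (-0.20, -0.26 to -0.15). For Irf7 and Irf9 the intervals included 0. Against control hashtags C0304 to C0306 alone, again 0 of 8 were past the fold, where 9.8% of genes were past it higher and 6.64% lower. Irf7 then had a log2 ratio of -0.31 (-0.54 to -0.08). Subsets differed, here against the whole control library. In marginal zone-like cells Irf2 had 0.05 (-0.09 to 0.18), Irf4 -0.16 (-0.39 to 0.06) and Irf8 0.08 (-0.03 to 0.19). In follicular-like cells these members had -0.12, -0.40 and 0.26. Follicular-like cells numbered 7038 (control) and 4864 (B6.SLE123), and germinal centre-like cells 58 and 559. The part of this mix in the B cell-like ratios was not tested.

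Irf3 was the member whose hashtags separated in that comparison. In B cell-like cells of the control library it was 77.5, 77.6, 77.1, 73.3, 74.3 and 76.1 CPM under hashtags C0301 to C0306. In the B6.SLE123 library it was 64.5, 62.0, 54.3, 55.7, 68.6 and 60.6 CPM. All B6.SLE123 values lay below all control values, and the log2 ratio was -0.33 (-0.42 to -0.24). The same held in follicular-like cells. In marginal zone-like cells the hashtags overlapped, at 44.3 to 69.0 CPM (B6.SLE123) and 61.7 to 87.3 CPM (control). Over all genes, 10.6% had every B6.SLE123 hashtag below every control hashtag, and 9.7% above, so 1 of 8 members is near that share.

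Hashtag C0303 of the B6.SLE123 library stood apart from the other 5. Irf8 in its B cell-like cells was 392 CPM, against 217, 303.7, 281, 271 and 243 CPM under C0301, C0302, C0304, C0305 and C0306. Irf4 there was 27.2 CPM against 38.3 to 50.3 CPM, and Irf5 64.1 CPM against 86.0 to 99.8 CPM. Without C0303 the log2 ratio of Irf8 was 0.06, that of Irf4 -0.20 and that of Irf5 -0.28. The same hashtag held the highest summed level of 15 interferon response genes, 469 CPM against 303.8 to 465 CPM, and its part in the results was not tested.

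Against the same control library, 0 of 8 members were past 1.5-fold in Ang II B cell-like cells, where 3.94% of 11431 genes were past it higher and 2.57% lower. The members' median log2 ratio was 0.08, beside 0.05 over all genes. Irf5 was the largest of these differences. Its level was 114, 101, 130, 123, 101 and 94.5 CPM under the 6 control hashtags, and 151, 137, 148, 147, 166 and 154 CPM under the Ang II hashtags. All Ang II values were higher, with a log2 ratio of 0.47 (0.41 to 0.53). Irf3 was 63.9 to 67.8 CPM under the Ang II hashtags, all below the control hashtags, with a log2 ratio of -0.21 (-0.30 to -0.13). Over all genes, 7.74% had every Ang II hashtag above every control hashtag and 4.9% had every one below. The members with such a separation were 1 of 8 in each direction.

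The Irf5 difference was also present within subsets. In follicular-like cells it was 138 to 170 CPM under the Ang II hashtags and 96.4 to 132 CPM under the control hashtags, and in marginal zone-like cells 126 to 156 against 71.7 to 112 CPM. In both subsets the hashtags did not overlap. With cells thinned to 1000 UMIs, an Irf5 UMI was found in 13.6% of Ang II, 10.4% of control and 8.17% of B6.SLE123 B cell-like cells. The Ang II library was the deepest, and its part in the result beyond this thinning was not tested. Irf7 was 18.3 against 14.4 CPM (log2 ratio 0.35, 0.17 to 0.53), and hashtag C0301 alone had 25.9 CPM while the others had 15.9 to 18.3 CPM. Against control hashtags C0301 to C0303 alone, Irf7 was past the fold at 18.3 against 12.2 CPM (0.59, 0.35 to 0.84), which made 1 of 8 members, where 4.88% of genes were past it higher and 2.04% lower. Irf5 then had 0.43 (0.35 to 0.51).

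**Figure D3:**
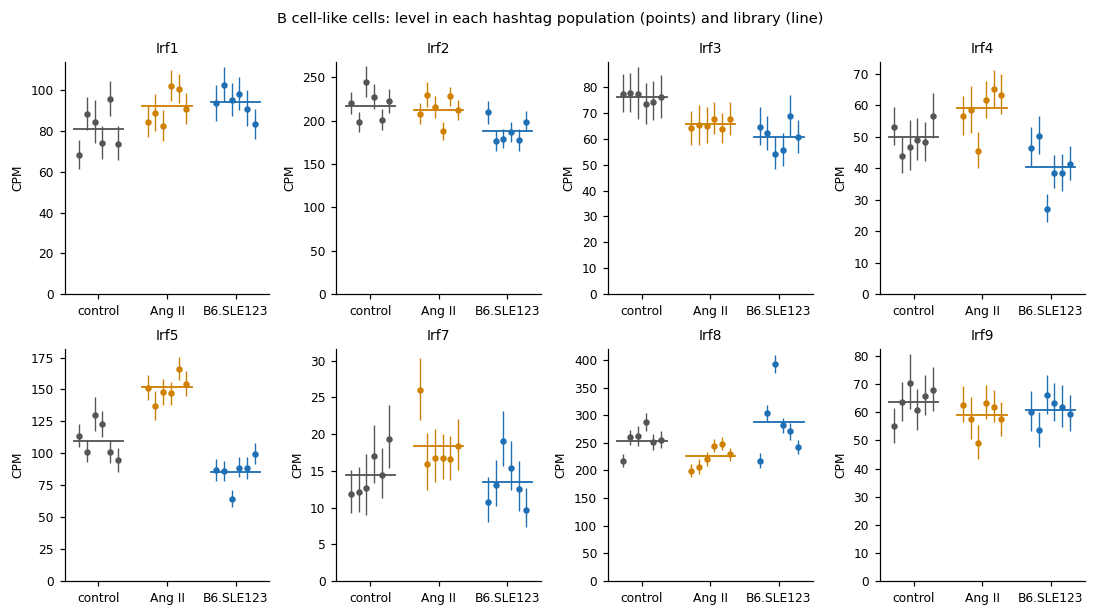
Level (CPM) of each member in B cell-like cells by hashtag (points, with exact 95% Poisson intervals) and by library (lines). The 6 Ang II points of Irf5 at 137 to 166 CPM lie above all control points, and the Irf3 points of both other libraries lie below all control points.

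The genes around the family were read from fixed lists in the same B cell-like cells, with the same 1.5-fold limit. In the B6.SLE123 library 6 of 15 interferon response genes were past it higher and 0 lower, with a median log2 ratio of 0.41, beside 10.1% higher and 6.91% lower over all genes. Against control hashtags C0304 to C0306 alone this became 3 higher and 2 lower, with a median of 0.08. Over all genes the shares were then 9.8% higher and 6.64% lower. The count thus depended on which control hashtags were used. Bst2, which tethers budding virus, was 132 against 72.5 CPM (log2 ratio 0.87), and Oas1a, an RNA-sensing synthetase, was 17.5 against 10.3 CPM (0.76). Against C0304 to C0306 alone, Bst2 had 0.84, and Oas1a had 0.46 (0.21 to 0.71), within the fold. Cxcl10, a chemokine, had 164 UMIs against 6 (log2 ratio 4.58). Of those 164 UMIs, 75 were under hashtag C0303 and 45 under C0304, and without C0303 the level fell from 5.11 to 3.36 CPM and the log2 ratio was 3.98. Among these cells the 15 genes summed to 272 CPM (control), 242 CPM (Ang II) and 391 CPM (B6.SLE123), with hashtags at 219 to 335, 215 to 302.2 and 303.8 to 469 CPM. In the Ang II library 0 of 13 were past the fold, with a median of -0.14. The shares over all genes there were 3.94% higher and 2.57% lower. Against control hashtags C0301 to C0303 alone 3 of 13 were past it higher and 0 lower, with a median of 0.19. Of all genes, 4.88% were then past it higher and 2.04% lower. B cell-like cells also differed in 2 lists added after the data were seen. Cell cycle genes summed to 58.6 CPM (control), 31.0 CPM (Ang II) and 250 CPM (B6.SLE123), and neutrophil granule genes to 110, 252 and 360 CPM. Their part in the list counts was not tested.

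Of 12 receptor and signalling genes, 3 were past the fold higher in B6.SLE123 B cell-like cells and 0 lower. Those were the feedback inhibitors Socs3 (log2 ratio 1.89), Socs1 (1.52) and Usp18 (0.60). The share over all genes, for this list and those that follow, was 10.1% higher and 6.91% lower. Of 19 sensors and adaptors, Ikbke, a kinase of Irf3 and Irf7, was higher (0.61) and Tlr4, the receptor for lipopolysaccharide, lower (-1.06). Of 9 partners and cofactors, Batf, which binds DNA with Irf4 and Irf8, was higher (1.18). In the Ang II library 1 of these 40 genes was past the fold, Mavs, the adaptor of cytosolic RNA sensors (0.72). Over all genes there, 3.94% were past it higher and 2.57% lower. These lists were not taken against only the control hashtags alike in Xist. The plasma cell genes Prdm1 and Xbp1 had log2 ratios of 0.41 and 0.45 in the B6.SLE123 library. None of 6 listed interferon genes reached 50 UMIs over both libraries in B cell-like cells.

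In pDC-like cells 3 of 8 members had enough UMIs for a ratio, Irf1, Irf7 and Irf8. Of these, Irf7 was furthest from the control library in the B6.SLE123 comparison. The control hashtags C0301, C0302, C0304, C0305 and C0306 had 171, 113, 179, 229 and 362 CPM, and none of the cells were under C0303. The Ang II hashtags C0301 to C0306 had 483, 81.9, 163, 175, 148 and 646 CPM. The B6.SLE123 hashtags had 389, 453, 968, 1062, 619 and 291 CPM. Each of these values rests on at most 13 cells. The B6.SLE123 hashtags were high except C0306, which fell inside the control range.

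Summed over hashtags, Irf7 in pDC-like cells was 668 CPM in the B6.SLE123 library (123 UMIs in 52 cells) against 175 CPM (30 UMIs in 42 cells) in the control library. The log2 ratio was 1.93 (1.35 to 2.56), and leaving out any 1 hashtag gave 1.65 to 2.10. Control hashtags C0304 to C0306 held 10, 4 and 4 of these cells, under the minimum of 20, so no ratio was taken against them alone. In this class 14.3% of genes were past 1.5-fold in either direction. Thinned to 1000 UMIs per cell, an Irf7 UMI was found in 43.1% of B6.SLE123 (29.3% to 57.8%), 28.0% of Ang II (12.1% to 49.4%) and 19.0% of control pDC-like cells (8.60% to 34.1%), against 1.31% to 1.85% of B cell-like cells. Unthinned, the pDC-like shares were 63.5%, 76.0% and 47.6%.

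Other measures of the pDC-like cells differed too. The summed level of their 6 marker genes, all found in each library, was 7385 CPM (control), 7663 CPM (Ang II) and 3983 CPM (B6.SLE123). Of the 6 B cell markers, 4 were found in the control library with a sum of 4386 CPM and 5 in the B6.SLE123 library with a sum of 2860 CPM. The part of these shifts in the Irf7 result was not tested. Irf8 had a log2 ratio of -0.25 in the B6.SLE123 and -0.12 in the Ang II comparison. Bst2 was 5118 against 5888 CPM (-0.20), and Slc15a4, which Irf5 and Irf7 activation through endosomal receptors requires, had 34 UMIs against 13. In the Ang II library 13.7% of genes were past 1.5-fold in pDC-like cells, and Irf1 was 232 against 146 CPM (log2 ratio 0.67, -0.10 to 1.46).

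In cDC1-like cells Irf5 was higher in both libraries than in the control library they share. The control hashtags had 181, 99.7, 49.6, 54.9, 154 and 77.9 CPM. The Ang II hashtags had 272, 346, 181, 256.4, 245 and 399 CPM, and the B6.SLE123 hashtags 126, 134, 286, 326, 409 and 281 CPM. Control hashtag C0301 reached the lowest Ang II value, and B6.SLE123 hashtags C0301 and C0302 fell inside the control range.

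Summed, Irf5 in cDC1-like cells was 263 CPM in the B6.SLE123 library (105 UMIs in 119 cells) and 270 CPM in the Ang II library (68 UMIs in 51 cells), against 119 CPM (23 UMIs in 47 cells). The log2 ratios were 1.15 (0.48 to 1.86) and 1.18 (0.48 to 1.93), where 19.5% and 15.4% of genes were past 1.5-fold in either direction. Against the control hashtags alike in Xist they were 1.17 (0.30 to 2.16) and 1.12 (0.20 to 2.19), from 12 and 11 control UMIs. The share of cDC1-like cells with an Irf5 UMI did not follow the level: thinned to 1000 UMIs it was 15.9% in the control and 15.9% in the B6.SLE123 library, and 22.4% in the Ang II library, where unthinned shares were 40.4%, 43.7% and 56.9%. Irf8 was 1062, 1083 and 1034 CPM. The 6 cDC1 markers were all found in each library and summed to 2398 CPM (control), 2113 CPM (Ang II) and 2775 CPM (B6.SLE123).

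**Figure D4:**
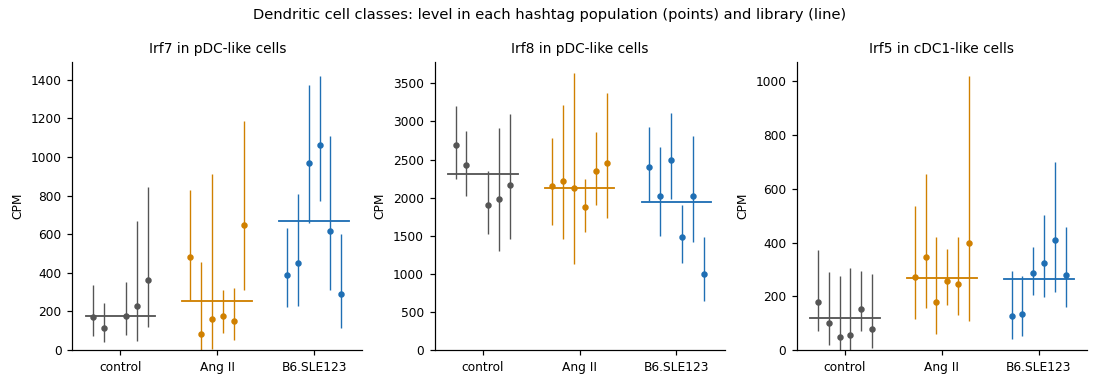
Level (CPM) by hashtag of Irf7 and Irf8 in pDC-like cells and of Irf5 in cDC1-like cells, with exact 95% Poisson intervals and library lines. Irf7 reaches 1062 CPM under a B6.SLE123 hashtag against at most 362 CPM in the control library, and the Irf8 library values lie between 1937 and 2306 CPM.

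Migratory DC-like cells, which carry antigen to the T zone, had Irf8 at a log2 ratio of -1.17 in the B6.SLE123 library, from 60 cells against 29. C1q DC-like cells, marked by complement C1q genes, were numerous only in the B6.SLE123 library, with 205 cells against 4 and 9. Their Irf7 was 203 CPM (164 to 249), their Irf2 214 CPM (174 to 261) and their Irf1 105 CPM (77.2 to 139). No comparison was possible for that class. T cell-like cells, left after depletion, numbered 309 in the Ang II library and at most 17 in the others, with Irf1 at 144 CPM and Irf8 at 6.1 CPM.

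Irf1 was lower in neutrophil-like cells of both libraries than in the control library they share. Its level was 221, 111, 186, 392, 205 and 325 CPM under the 6 control hashtags, 59.7, 52.3, 70.4, 83.6, 227 and 128 CPM under the Ang II hashtags, and 87.4, 72.5, 71.7, 44.5, 123 and 298 CPM under the B6.SLE123 hashtags. Most of the Ang II and B6.SLE123 values lay below the control range, but Ang II C0305 and C0306 and B6.SLE123 C0305 and C0306 fell inside it. Under Ang II the log2 ratio was -1.34 (-1.62 to -1.05), and with B6.SLE123 it was -1.17 (-1.49 to -0.86). Leaving out 1 hashtag gave -1.63 to -1.09 and -1.46 to -0.99. In this class 21.3% and 29.5% of genes were past 1.5-fold in either direction, and the median over all genes was -0.09 and -0.10. Against the control hashtags alike in Xist, Irf1 had -0.999 (-1.36 to -0.63) under Ang II, with a background of 19.1%, and -1.55 (-1.91 to -1.18) with B6.SLE123, with a background of 40.2%.

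The 5 members with enough UMIs in the Ang II comparison of neutrophil-like cells were all past the fold lower: Irf1, Irf2 (-0.66), Irf3 (-0.63), Irf7 (-0.71) and Irf9 (-0.71). The interval of Irf3 (-1.33 to 0.10) included 0. Against control hashtags C0301 to C0303 alone, Irf1 was the only one of the 5 past it, and Irf2 had -0.38, Irf3 -0.42, Irf7 -0.22 and Irf9 -0.14. Counted per cell they did not all move that way. Irf1 was 34.8 UMIs per 100 control cells and 30.7 per 100 Ang II cells, Irf2 32.7 and 46.2, Irf3 4.63 and 6.69, Irf7 13.7 and 18.7, and Irf9 11.5 and 15.7. The Ang II neutrophil-like cells held a mean of 4201 UMIs each against 1887, and 6 granule genes of immature neutrophils, added after the values were seen, summed to 107691 CPM against 70437 CPM. With cells thinned to 1000 UMIs, which left out 231 of 626 control and 51 of 658 Ang II cells, Irf1 had a log2 ratio of -0.62, Irf2 -0.13, Irf7 -0.35 and Irf9 0.027. The parts of depth and of maturity in these ratios were not tested further.

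In the B6.SLE123 library the neutrophil-like cells had 21.5 Irf1 UMIs per 100 cells, with a mean of 2627 UMIs per cell, so Irf1 was below the control library on both scales. Irf3 had a log2 ratio of -0.85 (-1.70 to -0.01). The granule genes summed to 111631 CPM there, and hashtags ranged from 8317 to 117329 CPM. Of the interferon response genes in neutrophil-like cells, 3 of 12 were past the fold higher in the B6.SLE123 comparison, led by Oas1a (1.45), and 0 lower, where 29.5% of all genes were past it in either direction. In the Ang II comparison 6 of 9 were past it lower and 0 higher, such as Oasl2 (-1.35) and Isg15, a ubiquitin-like modifier (-1.004), with a background of 21.3%.

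Both of those counts turned on the control hashtags. The summed level of the interferon response genes in neutrophil-like cells was 595, 344, 1062, 1242, 1549 and 1935 CPM under control hashtags C0301 to C0306, 268 to 778 CPM under the Ang II hashtags and 703 to 2491 CPM under the B6.SLE123 hashtags. The Ang II values thus overlapped control C0301 and C0302 and lay below the other 4. Against control hashtags C0301 to C0303 alone, 0 of 8 genes were past the fold lower and 2 higher under Ang II, with sums of 476 and 487 CPM. Of all genes, 19.1% were then past it in either direction. Against C0304 to C0306 alone, 1 of 12 was past it higher and 4 lower in the B6.SLE123 library, with a median log2 ratio of -0.52. The share of all genes past it in either direction was 40.2% there, so that count is near the background.

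Monocyte-like classes differed from each other. In Ly6c2 monocyte-like cells 0 of 7 members with enough UMIs were past 1.5-fold in the B6.SLE123 comparison, and 0 of 8 in the Ang II comparison. Of all genes, 16.3% (B6.SLE123) and 10.2% (Ang II) were past it. Irf4 had too few UMIs for a B6.SLE123 ratio. Irf7 was 207 against 150.2 CPM in the B6.SLE123 library (log2 ratio 0.46), but had 0.25 (-0.09 to 0.59) against control hashtags C0304 to C0306 alone. Against control hashtags C0304 to C0306 alone, with a background of 18.3%, Irf1 was past the fold lower in that library (-0.88, -1.27 to -0.48), and Irf3 had -0.77 with an interval that included 0. In Ace Ear2 monocyte-like cells, Irf1 was 216 CPM in the control library and had log2 ratios of -0.93 in the B6.SLE123 and -0.88 in the Ang II comparison, and Irf8, at 126 CPM in the control library, had -0.90 and -0.86. Irf3 had -0.63 in the B6.SLE123 comparison, with an interval that included 0 (-1.44 to 0.18). It was within the fold with several-hashtag barcodes kept (-0.50) and with classes from clusters (-0.57). The backgrounds there were 15.4% and 13.1%. Against the control hashtags alike in Xist, Irf1 had -1.27 with B6.SLE123 but -0.29 (-0.98 to 0.40) under Ang II, and Irf8 had -0.92 and -0.87. The Ang II ratio of Irf8 rested on 26 UMIs against 66. It was within the fold with several-hashtag barcodes kept (-0.07) and with hashtag means (-0.49). These settings gave -0.74 and -0.79 with B6.SLE123, and limits read as UMIs gave -0.58, within the fold.

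The control hashtags with at least 20 Ace Ear2 monocyte-like cells had Irf1 at 141, 131, 274, 328 and 135 CPM, and the B6.SLE123 hashtags 136, 184, 79.8, 145, 131 and 108 CPM, which overlap. These cells also differed in neutrophil markers, which summed to 243 CPM (control, 3 of 6 found), 20053 CPM (Ang II, 5 of 6 found) and 28473 CPM (B6.SLE123, 6 of 6 found). Hashtags ranged from 105 to 846, from 203 to 26813 and from 208 to 49823 CPM. With classes taken from clusters instead, the Irf8 ratios were -0.18 and -0.48, and those of Irf1 were -0.84 and -0.97. The part of neutrophil RNA in the gated values was not tested further.

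In NK cell-like cells 0 of 6 members with enough UMIs were past the fold in the B6.SLE123 library, where 10.8% of genes were. Irf4 and Irf5 had too few UMIs for a ratio in this class. In the Ang II library, with a background of 11.5%, Irf7 was past it at 53.1 against 33.6 CPM (log2 ratio 0.66, 0.04 to 1.30). Its hashtags ranged from 22.9 to 79.7 CPM under Ang II and from 18.4 to 58.6 CPM in the control library and overlapped. The ratio was within the fold with several-hashtag barcodes kept (0.48), limits read as UMIs (0.45) and TMM scaling (0.577). With classes from clusters (0.63) and hashtag means (0.64) it stayed past the fold. Against the control hashtags alike in Xist, Irf7 had 1.02 (0.14 to 2.01) under Ang II, with 13 control UMIs and a background of 12.7%, and Irf3 had -0.74 (-1.39 to -0.09) with B6.SLE123, past the fold beside a background of 12.9%. Under Ang II, Irf8 was 257 against 345 CPM in the whole control library (-0.43, -0.65 to -0.20), and Irf1 239 against 174 CPM (0.46, 0.19 to 0.73). Against C0301 to C0303 alone, Irf8 had -0.26 (-0.55 to 0.03) and Irf1 0.37 (0.02 to 0.73). Ifng, the interferon that NK cells secrete, had 30 UMIs in the B6.SLE123 library against 62 (log2 ratio -0.86).

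**Figure D5:**
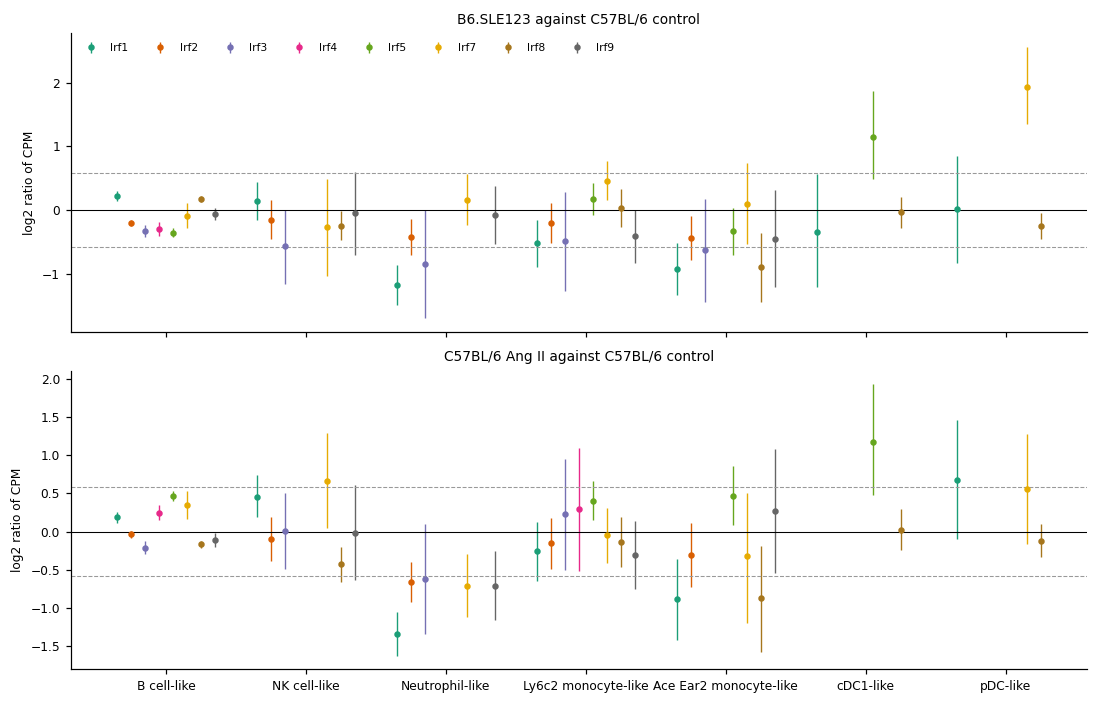
Log2 ratio of each member against the control library in 7 cell classes, for B6.SLE123 and Ang II, with exact 95% intervals and dashed lines at 1.5-fold. B cell-like points all lie between the dashed lines, Irf7 in pDC-like cells lies at 1.93 for B6.SLE123, and Irf1 in neutrophil-like cells at -1.17 and -1.34.

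Small B cell subsets gave further ratios past the fold that rest on few UMIs. In transitional-like cells Irf4 had log2 ratios of 0.75 (B6.SLE123, with an interval that included 0) and 0.95 (Ang II), and Irf1 0.75 in the B6.SLE123 comparison, which ranged from 0.25 to 1.12 when 1 hashtag was left out. In germinal centre-like cells Irf5 had 0.92 (Ang II) and Irf9 0.69 (B6.SLE123), the latter with an interval that included 0. With barcodes of several hashtags kept, Irf4 in B6.SLE123 transitional-like cells had 0.08.

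Genes with the most similar pattern to each member were sought over 31 class sums of 3 libraries, by Pearson's correlation of log2(CPM + 10). These sums share libraries and depth, so the values are a description. Irf5 was most like Rassf4 (r = 0.90), Plekho1 (0.87) and Ctss (0.87), and Irf2 was most like Nedd9 (0.90). Irf3 came closest to Zcchc7 (0.84), Irf1 to H2-D1, a classical class I molecule (0.81), Irf7 to Grn (0.78) and Irf8 to Tox4 (0.77). For Irf4 (Gm10552, 0.67) and Irf9 (D430042O09Rik, 0.67) the leading gene changed when a pseudocount of 1 was used.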

How the data were processed

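Splenocytes of 3 libraries, 1 per group, were measured. The authors deposited raw UMI counts of genes and hashtags by barcode, and the file headers name Cell Ranger 6.0.0. The submitters' processing notes name the build mm10. Barcodes with more than 200 and fewer than 3500 genes and under 15% mitochondrial UMIs were kept, and each hashtag's threshold was set by Otsu's method. Barcodes positive for several hashtags (2446, 1809 and 3670) were removed as doublets, and no other doublet caller was run. A cell was given the class of which it held the most of 6 markers, at least 2, without a tie. UMIs were summed by class, library and hashtag and divided by the sum over all genes (CPM). A class needed 20 cells and a ratio 50 UMIs over both libraries. A gene was called past 1.5-fold.

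Poisson intervals for levels, exact conditional intervals for ratios and Clopper-Pearson intervals for shares were 95%. A single library per group allowed no test, and the libraries cannot be told apart from their groups. The study's methods describe female mice, whereas the labels name both sexes, and the labels were followed. By the rule for named genes, members were given by class, listed genes by counts with the largest and smallest ratios, and the 3 genes closest in pattern. Further listed genes (such as Bst2, Isg15, Prdm1, Xbp1, Slc15a4 and Ifng) were named after their values were seen. The members, lists and markers were chosen with earlier results of these data known, and the granule and cell cycle lists were added after the data were seen. Of the listed symbols, Sting1, Mb21d1 and Mx1 were not among the gene names. The ratio computation was tested on simulated data. Python 3.11.15, numpy 2.4.6, scipy 1.17.1, pandas 2.3.3, scanpy 1.11.5, R 4.3.3 and edgeR 4.0.16 (TMM factors) were used. Alternatives were the limits read as UMIs, several-hashtag barcodes kept, classes from Leiden clusters, at least 3 markers, TMM scaling, other totals, thinning to 1000 UMIs, means of hashtags, and each hashtag left out. Ratios against only the control hashtags alike in Xist were added after the data were seen.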

Additional observations from a re-analysis of the deposited data

Results flagged for a closer look

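Under Ang II, Irf1 and Irf7 had ratios past 1.5-fold in opposite directions in different classes, with the control library shared. Irf1 had a log2 ratio of 0.67 in pDC-like cells, -1.34 in neutrophil-like cells and -0.88 in Ace Ear2 monocyte-like cells. Irf7 had 0.66 in NK cell-like and -0.71 in neutrophil-like cells. The pDC-like interval included 0, and per cell Irf7 UMIs were more numerous in Ang II neutrophil-like cells (18.7 against 13.7 per 100 cells). Against control hashtags C0301 to C0303 alone, which are alike to Ang II in Xist, Irf1 had -0.999 in neutrophil-like and -0.29 in Ace Ear2 monocyte-like cells, and Irf7 -0.22 in neutrophil-like and 1.02 in NK cell-like cells. With 1 library per group, none of these differences between classes was tested.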

How the results depend on the processing

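The counts of members past 1.5-fold in B cell-like cells stayed at 0 of 8 in both comparisons under the alternatives below and with any 1 hashtag left out (0 to 0). The exception was the use of only the control hashtags alike in Xist, chosen after the data were seen, with which Ang II gave 1 of 8 (Irf7, 0.59) and B6.SLE123 0 of 8. Over all classes, B cell subsets and both comparisons, 23 of 157 member ratios were past the fold. Over all genes, the share past it in either direction was 10.2% to 29.5% in the other classes where it was taken. In B cell-like cells it was 10.1% higher and 6.91% lower (B6.SLE123), and 3.94% and 2.57% (Ang II). Keeping barcodes of several hashtags brought 5 of 23 back within it, TMM scaling 3 of 23, Leiden classes 4 of the 16 that could be computed, hashtag means 3 of 16, limits read as UMIs 5 of 9, control hashtags alike in Xist 5 of 16 and thinning 3 of 7, while at least 3 markers and other totals changed 0. Thinning reversed the neutrophil-like Irf9 ratio under Ang II, to 0.027. With limits read as UMIs, the neutrophil-like Ang II ratios were -0.69 for Irf1, -0.13 for Irf2, -0.15 for Irf7 and -0.06 for Irf9, and the cause was not tested. The pDC-like Irf7 ratio in B6.SLE123 was 1.93 to 1.99 where it could be computed, which UMI limits, thinning and hashtag means did not allow. The cDC1-like ratios could not be recomputed from clusters, which gave no such class.

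No paired analysis was possible because each group was 1 library and no hashtag was named for a condition. Depth limits the small classes: the Irf9 ratio in B6.SLE123 germinal centre-like cells rested on 7 control UMIs, and hashtag values of pDC-like cells on at most 13 cells.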
